A study of Mus musculus with 15 samples.

Results

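The SLC25 mitochondrial carrier family was followed across the livers of mice that had received carbon tetrachloride, ethanol, both or neither. Members were all rows of the count tables whose symbol is Slc25a followed by a number, which gave 47 of 24499 genes. Of these 47, 42 had enough reads to pass the filter on low counts and were tested among 14778 genes. The other 5, Slc25a2, Slc25a31, Slc25a41, Slc25a43 and Slc25a54, stayed below 1 CPM (read count scaled to library size) in every library, and Slc25a54 had no read in any of the 15 libraries.

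Carriers of this family sit in the inner mitochondrial membrane and exchange small molecules between the cytosol and the matrix. They move ADP and ATP, phosphate, di- and tricarboxylic acids, amino acids, carnitine esters, nucleotides, vitamins made into cofactors, iron and glutathione. In the liver they feed the urea cycle, fatty acid oxidation, gluconeogenesis, haem synthesis and the shuttles that carry reducing equivalents from cytosolic ethanol oxidation into mitochondria. The proton-leak carriers Ucp1, Ucp2 and Ucp3 belong to the same protein family under other symbols and are given only beside it.

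Whole livers came from adult male C57BL/6 mice. Animals of the CCl4 arm were injected intraperitoneally with carbon tetrachloride at 0.2 ml/kg, 2 times a week over 6 weeks, and those of day 20 went on to receive a lower dose. The other arm is named OO in the labels, which do not spell the name out. Ethanol reached 25 g/kg a day during 3 weeks of continuous intragastric feeding, and the labels give these animals a high-fat diet where their controls had chow, so an ethanol difference is a diet difference as well. The groups were OO at day 0 (libraries 1 and 2), CCl4 at day 0 (3 and 4), OO with chow at day 20 (12), OO with ethanol at day 20 (13, 14 and 15), CCl4 with chow at day 20 (16 and 17), CCl4 with ethanol at day 20 (18, 19 and 20), OO with chow at day 23 (5) and OO with ethanol at day 23 (6). The day 23 pair carries another substudy number in its labels than the day 20 libraries and no second OO phase. The day 0 labels carry no such number. Nothing in the labels says that each library is a separate animal, so p-values measure only how far these samples spread, which may be technical.

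Gene counts ranged from 10347844 to 28843258 per library. Hepatocyte markers were high in all libraries, with a sum of 50973 to 94411 CPM over the 7 markers found. Skeletal muscle transcripts stood out in library 14 (455 CPM summed over 7 markers), library 20 (467), library 6 (98.3) and library 16 (41), against 0.459 to 1.99 CPM elsewhere, and exocrine pancreas transcripts in libraries 6 (177) and 12 (176). Library 12 is the only control of 3 comparisons. The test of whether the ethanol difference depended on CCl4 also rests on it as the only OO chow library. In whole liver a fall in the number of cells of a type and a fall in RNA per cell cannot be told apart.

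All levels below are TMM-normalised CPM unless a length is named. Per kilobase of exon, Slc25a5 led the family at a mean of 216 CPM per kilobase over the 15 libraries, followed by Slc25a47 (153), Slc25a39 (107), Slc25a15 (68.4), Slc25a13 (65.3), Slc25a1 (50.5) and Slc25a10 (40.4). Slc25a5 is the main ADP/ATP carrier of liver, Slc25a47 a carrier largely restricted to hepatocytes, and Slc25a39 the carrier that imports glutathione into mitochondria. The ranges over libraries of neighbours in this order overlapped, as for Slc25a15 (39.5 to 100) and Slc25a13 (45.3 to 87.8). Of the 47 members, 34 reached 1 CPM per kilobase, 16 reached 10 and 3 reached 100. The 5 members with the highest CPM held 48.1% to 58.8% of the family's summed CPM in each library.

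**Figure D1:**
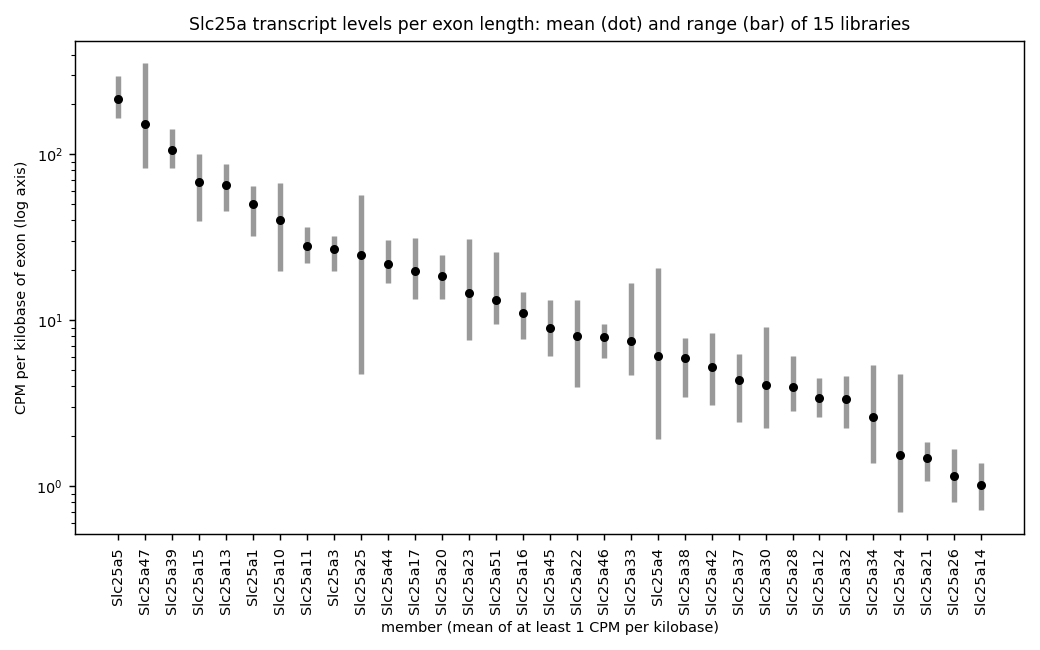
Mean level (dot) and range over the 15 libraries (grey bar) of 33 of the 34 members with at least 1 CPM per kilobase of exon, on a log axis. Slc25a5 is highest at 216 CPM per kilobase, and the longest bars belong to Slc25a25, Slc25a4 and Slc25a24.

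The summed level of the family was 3211 ± 140 CPM in OO livers at day 0 and 3316 ± 32.7 in CCl4 livers at day 0 (SD, n = 2 each). At day 20 it was 2877 in the OO chow library, 3429 ± 190 with ethanol in OO livers (SD, n = 3), 2654 ± 234 in CCl4 chow livers (SD, n = 2) and 2656 ± 87.2 in CCl4 ethanol livers (SD, n = 3). The day 23 libraries stood highest, at 3640 with chow and 4593 with ethanol. All 3 OO ethanol libraries of day 20 (3228 to 3606) lay above all 3 CCl4 ethanol libraries (2577 to 2750). Over the 15 libraries the sum ranged from 2489 to 4593 CPM, and some members ranged less widely than that and others more widely. Between the lowest and the highest library the tested members differed 1.6-fold to 11.9-fold, with a median of 2.38-fold.

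**Figure D2:**
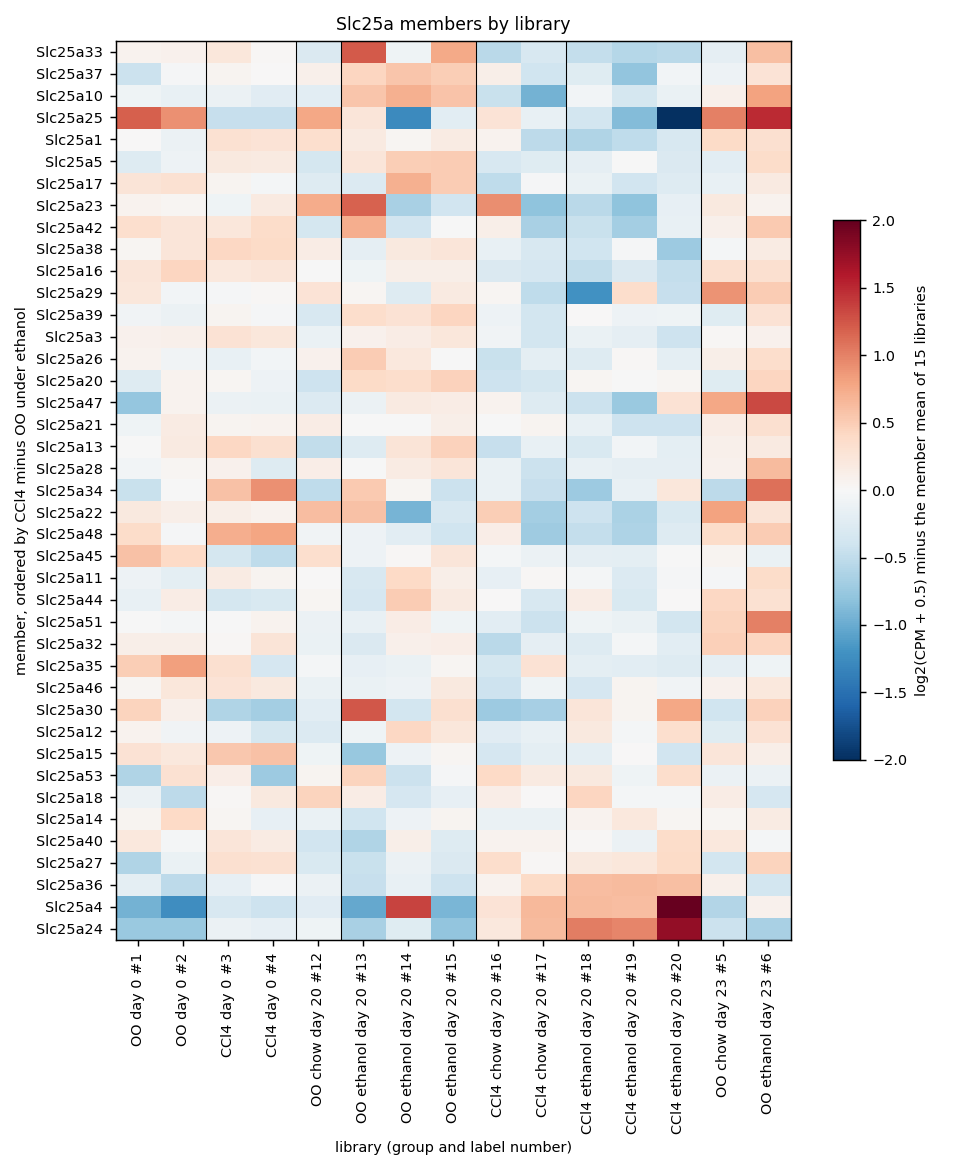
Level of 41 of the 42 tested members (rows, ordered by their change between the CCl4 and OO ethanol groups) in the 15 libraries (columns, with group and library number), as log2(CPM + 0.5) minus the member's mean over the libraries, with colours limited to -2 and 2. Slc25a24 and Slc25a36 at the bottom are above their means in all 3 CCl4 ethanol libraries, and Slc25a33, Slc25a37 and Slc25a10 at the top are at or below theirs there.

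Of the 42 tested members, 14 were called in at least 1 of 8 comparisons, and 28 in none. The share of all genes called at least once was not counted, so this number alone shows nothing particular to the family. A call is an adjusted p under 0.05 from the quasi-likelihood test of edgeR, adjusted after Benjamini and Hochberg over all 14778 genes. The largest number came from adding CCl4 to ethanol (CCl4 with ethanol against OO with ethanol at day 20, n = 3 against 3). There 12 members changed, 28.6% of those tested, against 23.7% of all genes, so the share lies near the background. The direction was uneven: 10 members were lower and 2 higher, where 11% of all genes were lower and 12.7% higher. The median log2 change of the members was -0.31 against -0.04 for all genes, and 9 of 42 members had a positive change against 46.3% of all genes. Without libraries 14 and 20, which hold skeletal muscle transcripts, 9 members were called, 3 higher and 6 lower, with 13.8% of all genes called in that fit; Slc25a3, Slc25a5, Slc25a16, Slc25a20 and Slc25a39 were no longer called and Slc25a4 and Slc25a42 were.

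Ethanol in OO livers (n = 3 against 1) raised 4 members and lowered none, where 3.64% of all genes were called, 1.22% as higher and 2.42% as lower. CCl4 at day 0 (n = 2 against 2) lowered 2 members and raised none, against 2.06% of all genes called, 0.947% as higher and 1.11% as lower. In CCl4 livers kept on chow, day 20 against day 0 (n = 2 against 2) showed 2 members lower and none higher, against 11.5% of all genes called, 7.27% as higher and 4.2% as lower. Day, CCl4 dose and substudy label differ together in that comparison and cannot be told apart. CCl4 with ethanol against OO with chow (n = 3 against 1) showed 1 member lower, against 2.8% of all genes called, 1.12% as higher and 1.68% as lower.

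No member was called for ethanol in CCl4 livers (n = 3 against 2; 1.27% of all genes called by edgeR, 0.501% higher and 0.765% lower), where 7 of 42 members and 11.8% of all genes had an unadjusted p under 0.05 and DESeq2 called 0 members. None was called for CCl4 under chow (n = 2 against 1; 0.189% of all genes by edgeR, 0.0203% higher and 0.169% lower), with 3 of 42 members and 6.89% of all genes at an unadjusted p under 0.05 and 0 members by DESeq2. The test of whether the ethanol difference itself depended on CCl4 called 0.0135% of all genes and no member by edgeR or DESeq2. In it 4 of 42 members and 8.22% of all genes had an unadjusted p under 0.05, and the smallest edgeR adjusted p was 0.375. No difference between the ethanol responses of OO and CCl4 livers was therefore shown for any carrier, in a test that rests on library 12 as its only OO chow library. Ethanol in OO livers and CCl4 under ethanol share libraries 13, 14 and 15, and their results are not independent of each other.

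**Figure D3:**
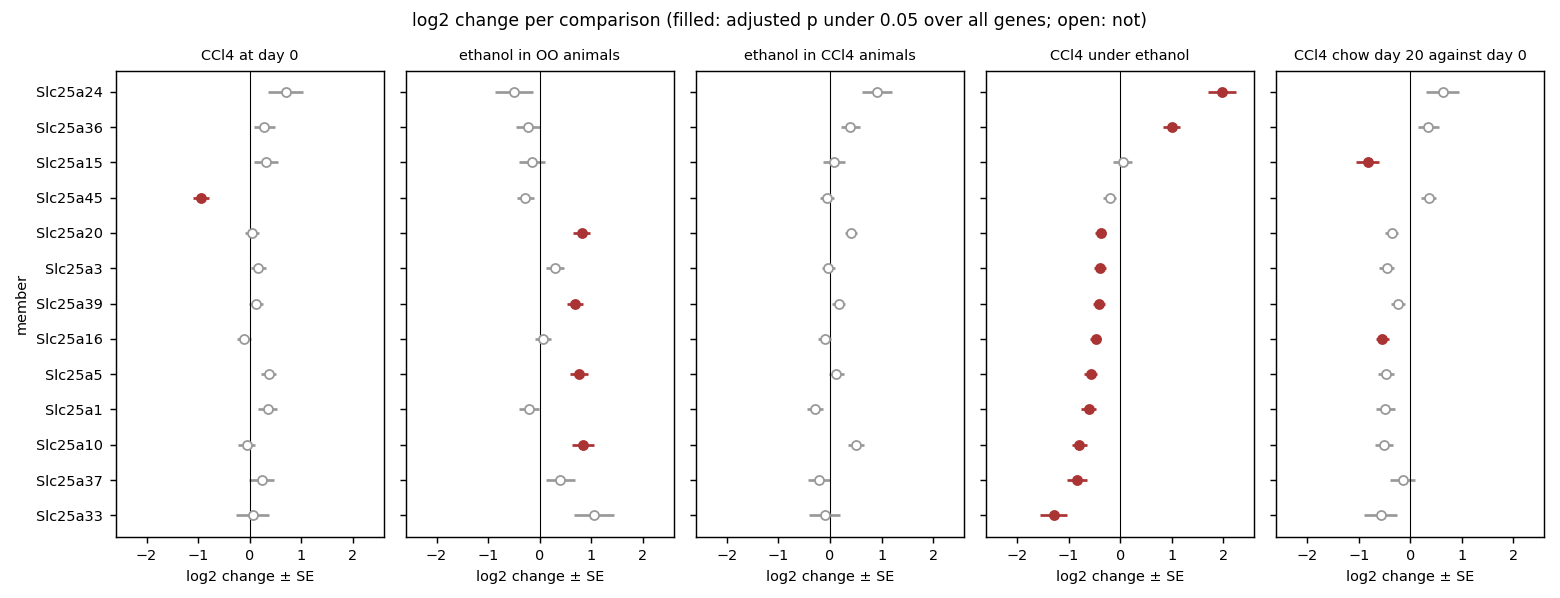
Log2 change ± SE of 13 of the 14 members called at least once, in 5 comparisons (panels), with filled points for an adjusted p under 0.05 and open points for the rest. The panel of CCl4 under ethanol holds 11 of the filled points, 9 of them left of 0.

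The windows around the start sites of members that moved together are given as sequence, from 250 bases before to 50 bases after the start, as RefSeq annotates it on GRCm38.p6. The table held 46 windows for 36 of the 47 members, among them 13 windows of 12 of the 14 called members. Capitals mark matches, on either strand, to the GC box (GGGCGG), the CCAAT box (CCAAT), the E-box (CACGTG) and the cAMP response element (TGACGTCA). The first 4 sequences belong to the members called higher with ethanol in OO livers, and the last 2 to the members called higher with CCl4 under ethanol.
Slc25a5 (chrX:36795347-36795646, plus strand): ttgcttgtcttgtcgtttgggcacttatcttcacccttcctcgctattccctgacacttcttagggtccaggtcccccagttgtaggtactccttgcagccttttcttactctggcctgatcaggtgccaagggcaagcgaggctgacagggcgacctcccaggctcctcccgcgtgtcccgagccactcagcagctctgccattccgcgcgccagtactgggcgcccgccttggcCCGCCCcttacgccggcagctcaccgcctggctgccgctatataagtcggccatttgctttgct
Slc25a10 (chr11:120491587-120491886, plus strand): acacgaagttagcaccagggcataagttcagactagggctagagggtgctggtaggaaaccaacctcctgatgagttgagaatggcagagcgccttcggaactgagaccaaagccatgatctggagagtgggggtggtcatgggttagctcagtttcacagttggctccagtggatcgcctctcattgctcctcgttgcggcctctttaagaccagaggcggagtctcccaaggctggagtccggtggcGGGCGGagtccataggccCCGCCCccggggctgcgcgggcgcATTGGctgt
Slc25a20 (chr9:108661886-108662185, plus strand): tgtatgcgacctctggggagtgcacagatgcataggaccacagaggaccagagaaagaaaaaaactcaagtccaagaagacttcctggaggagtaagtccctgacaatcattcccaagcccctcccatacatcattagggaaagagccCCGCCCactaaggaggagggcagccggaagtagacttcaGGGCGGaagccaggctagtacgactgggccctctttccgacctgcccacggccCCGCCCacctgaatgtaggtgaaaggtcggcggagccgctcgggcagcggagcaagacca
Slc25a39 (chr11:102407468-102407767, minus strand): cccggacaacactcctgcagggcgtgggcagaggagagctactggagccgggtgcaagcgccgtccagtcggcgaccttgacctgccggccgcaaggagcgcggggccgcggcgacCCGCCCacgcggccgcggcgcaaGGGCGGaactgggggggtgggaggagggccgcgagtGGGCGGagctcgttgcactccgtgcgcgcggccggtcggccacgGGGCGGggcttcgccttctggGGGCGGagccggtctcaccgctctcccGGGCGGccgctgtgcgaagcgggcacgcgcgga
Slc25a24 (chr3:109122899-109123198, plus strand): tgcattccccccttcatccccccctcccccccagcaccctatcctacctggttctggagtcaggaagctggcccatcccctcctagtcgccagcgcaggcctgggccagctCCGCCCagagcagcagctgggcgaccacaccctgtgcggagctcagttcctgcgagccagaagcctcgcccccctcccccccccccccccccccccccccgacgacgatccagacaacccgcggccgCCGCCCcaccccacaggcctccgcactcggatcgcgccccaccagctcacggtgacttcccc
Slc25a36 (chr9:97110992-97111291, minus strand): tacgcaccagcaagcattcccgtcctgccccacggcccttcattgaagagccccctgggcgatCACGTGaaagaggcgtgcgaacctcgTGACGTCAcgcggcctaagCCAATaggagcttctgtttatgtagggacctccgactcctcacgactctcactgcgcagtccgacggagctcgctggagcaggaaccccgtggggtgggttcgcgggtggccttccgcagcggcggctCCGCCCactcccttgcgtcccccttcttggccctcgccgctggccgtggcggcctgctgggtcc

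The GC box was present in 38 of 46 family windows (82.6%) and in 35.7% of the 32851 windows of all genes, and in all 13 windows of called members. It therefore does not separate members that moved from those that did not. Slc25a39 has GC content of 77.3% and Slc25a24 of 72.3% in the window, against a median of 52.7% over all windows. CCAAT was in 22 of 46 family windows and 37.4% of all, the E-box in 8 of 46 and 7.15%, and the NRF1 motif in 2 of 46 and 4.6%. Slc25a36 holds a cAMP response element, found in 2 of 46 family windows and 1.79% of all, beside an E-box and a CCAAT box. The nuclear receptor repeat DR1 was in no family window and in 0.0396% of all windows. These matches describe letters only.

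The adenine nucleotide carriers of the family export ATP from the matrix in return for ADP. Slc25a5 rose with ethanol in OO livers. Its gene lies at chrX:36795651-36798807 of mm10. It stood at 274 CPM in the OO chow library 12 and at 410, 489 and 493 CPM in the ethanol libraries 13, 14 and 15, a log2 change of 0.76 ± 0.18 (SE; edgeR adjusted p = 0.0436). In the CCl4 ethanol libraries it was lower again, at 306, 345 and 284 CPM, and the groups did not overlap (log2 change -0.57 ± 0.12, SE; edgeR adjusted p = 0.00633). In CCl4 livers ethanol moved it little, from 278 and 294 CPM with chow (log2 change 0.13 ± 0.14, SE; edgeR adjusted p = 0.792). The call for CCl4 under ethanol was lost without libraries 14 and 20 (edgeR adjusted p = 0.0725), and the call for ethanol in OO livers without library 14 (0.0877) or 15 (0.107). The annotation holds 1 pseudogene under its symbol, and multiply aligned reads were dropped, so its level is uncertain.

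Slc25a4, the ADP/ATP carrier of heart and skeletal muscle, was low in OO livers at day 0, at 5.69 and 4.55 CPM. It stood at 5.35, 29.9 and 5.84 CPM in the OO ethanol libraries 13, 14 and 15, and at 18, 17.8 and 48.6 CPM in the CCl4 ethanol libraries 18, 19 and 20. The groups overlapped and the difference was not called (log2 change 0.99 ± 0.58, SE; edgeR adjusted p = 0.252). Its highest value in each of these groups fell in the library with 455 (14) or 467 CPM (20) of skeletal muscle transcripts, with all 7 markers detected in both groups. Without libraries 14 and 20, a choice made after the data were seen, the log2 change was 1.68 with an edgeR adjusted p of 0.00139. Libraries 17, 18 and 19 reached 17.8 to 18.2 CPM with 1.01 to 1.99 CPM of muscle transcripts. Without library 14 alone the log2 change was 2.32 (edgeR adjusted p = 0.00472), and without library 20 alone it was 0.35 (0.733). The part of the muscle transcripts in these values was not tested further.

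**Figure D4:**
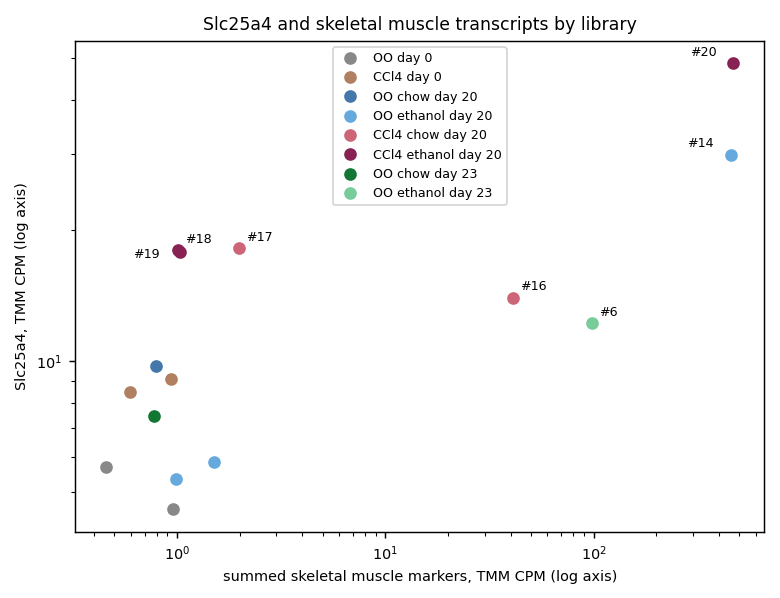
Slc25a4 level against the summed level of 7 skeletal muscle markers in the 15 libraries, both in CPM on log axes, with colours for the groups. Libraries 14 and 20 lie far right and high, and libraries 17, 18 and 19 lie at 17.8 to 18.2 CPM of Slc25a4 with little muscle signal.

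Slc25a3, which carries the phosphate that ATP synthase uses, was among the steadiest members, between 110 and 180 CPM in all libraries. It was 156, 162 and 171 CPM in OO ethanol livers and 134, 130 and 110 CPM in CCl4 ethanol livers. The difference was small and called (log2 change -0.39 ± 0.12, SE; edgeR adjusted p = 0.0338). The call was lost without library 14, 15, 18 or 20, with edgeR adjusted p from 0.0532 to 0.130. Of 15 subunits of ATP synthase 4 were lower and 0 higher in the same comparison, where 11% of all genes were called lower. The 4 included Atp5d (log2 change -0.63) and Atp5g3 (-0.41), and the median log2 change of the list was -0.27.

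The calcium-regulated carriers of this group exchange ATP-Mg for phosphate and set the size of the matrix adenine nucleotide pool. Slc25a24, a member at a low level in liver, had the largest called change of the family. It read 2.67, 3.71 and 2.39 CPM in OO ethanol libraries and 9.62, 9.32 and 16.3 CPM in CCl4 ethanol libraries. All CCl4 ethanol libraries were above all others, and the log2 change was 1.98 ± 0.26 (SE; edgeR adjusted p = 0.000467). CCl4 chow libraries stood between, at 5.26 and 7.17 CPM, and the CCl4 day 0 libraries at 4.07 and 3.95 CPM against 2.48 and 2.47 CPM in OO livers, a difference that was not called (edgeR adjusted p = 0.335). Against the OO chow library, at 4.19 CPM, the CCl4 ethanol group gave a log2 change of 1.48 ± 0.39 (SE; edgeR adjusted p = 0.0719).

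Slc25a36, which carries pyrimidine nucleotides, moved in the same direction. Its levels were 5.45, 6.84 and 5.66 CPM in OO ethanol livers and 12, 12.2 and 11.9 CPM in CCl4 ethanol livers, with CCl4 chow livers at 8.12 and 10.2 CPM. The log2 change of CCl4 under ethanol was 1.00 ± 0.16 (SE; edgeR adjusted p = 0.00133). The other pyrimidine nucleotide carrier, Slc25a33, went the opposite way, from 31.7, 12.5 and 22.8 CPM in OO ethanol livers to 9.4, 8.76 and 9 CPM (log2 change -1.29 ± 0.26, SE; edgeR adjusted p = 0.00488). The OO ethanol libraries spread widely for Slc25a33, and the CCl4 ethanol libraries did not.

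Beside the rise of Slc25a24 and Slc25a36, transcripts of other liver cells were higher with CCl4 under ethanol. In the comparison of CCl4 under ethanol 6 of 10 Kupffer cell and macrophage markers were higher and 1 lower, and their sum was 505 to 645 CPM in OO and 987 to 1154 CPM in CCl4 livers. Among stellate cell markers 5 of 8 were higher (319 to 427 against 751 to 1218 CPM summed), among cholangiocyte markers 3 of 6 (46 to 75.1 against 387 to 597 CPM) and among neutrophil markers 7 of 8 (14 to 25.9 against 59.4 to 164 CPM). Of all genes 12.7% were called higher in that comparison. No marker of these 4 lists was at 0 in all libraries of either group. Their part in the rise of the 2 carriers, and in the fall of the 10 others, was not tested. The OO chow library 12 held 1191 CPM of macrophage markers with Slc25a24 at 4.19 and Slc25a36 at 7.03 CPM. CCl4 chow livers held 833 to 928 CPM of macrophage, 1205 to 1607 of stellate cell, 91.6 to 307 of cholangiocyte and 227 to 241 of neutrophil markers. Slc25a24 stood there at 5.26 and 7.17 CPM and Slc25a36 at 8.12 and 10.2 CPM. Hepatocyte markers summed to 50973 to 56879 CPM in OO and 62428 to 72262 CPM in CCl4 ethanol livers. Of the 7 tested, 0 were called higher and 1, Serpina1c, lower. Only 3 of the 7 changes were positive, with a median log2 change of -0.24 against -0.04 for all genes. Their part was not tested either.

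Slc25a25, another ATP-Mg/phosphate carrier, varied more than any other tested member, 11.9-fold over the libraries. In OO livers at day 0 it read 365 and 299 CPM, and in CCl4 livers at day 0 it read 115 in both libraries. The groups did not overlap, and the fit over all groups gave no call (log2 change -1.53 ± 0.50, SE; edgeR adjusted p = 0.142). In a fit on these 4 libraries alone the edgeR adjusted p was 0.000152. Libraries 3 and 4, the CCl4 pair, spread less than any other replicate pair. At day 20 the values were 271 CPM with OO chow, 188, 65.6 and 137 with OO ethanol, 193 and 143 with CCl4 chow, and 123, 86.8 and 37.4 with CCl4 ethanol. The day 23 pair ran the other way, with 321 CPM under chow and 446 under ethanol. Slc25a23, the third carrier of this kind and named here after its values were seen, differed within groups, at 162, 45 and 54.1 CPM in OO ethanol and 136 and 40.4 CPM in CCl4 chow livers.

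Among the cofactor carriers, Slc25a16, a carrier linked to coenzyme A, was lower in CCl4 chow livers at day 20 than in CCl4 livers at day 0. It read 60.6 and 62.3 CPM at day 0 and 42.7 and 41.6 CPM at day 20 (log2 change -0.54 ± 0.13, SE; edgeR adjusted p = 0.0236). Under ethanol it was 49.1, 56.7 and 56.9 CPM in OO and 37.2, 43 and 37.4 CPM in CCl4 livers (log2 change -0.47 ± 0.11, SE; edgeR adjusted p = 0.00877). In OO livers it stood at 61.9 and 70.5 CPM at day 0 and 52.1 CPM with chow at day 20, a time difference that was not tested. The ethanol call was lost without libraries 14 and 20 (edgeR adjusted p = 0.100). Slc25a42, the coenzyme A carrier proper, was not called: it read 49.9, 22.9 and 29.8 CPM in OO and 22, 18.6 and 27.1 CPM in CCl4 ethanol livers (log2 change -0.60 ± 0.27, SE; edgeR adjusted p = 0.141). All 7 cofactor carriers had a negative change in this comparison, with a median of -0.47 on the log2 scale, and 2 passed the test. Of all genes 23.7% were called there, 11% as lower, and only 9 of all 42 tested members had a positive change.

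The carboxylate carriers link the citric acid cycle to synthesis in the cytosol. Slc25a10, the dicarboxylate carrier that exchanges malate and succinate for phosphate, read 114 CPM in the OO chow library and 194, 217 and 197 CPM in OO ethanol livers. Every ethanol library was above the control library, and the log2 change was 0.84 ± 0.21 (SE; edgeR adjusted p = 0.0489). In CCl4 livers it was 96.9 and 68.4 CPM with chow and 127, 104 and 121 CPM with ethanol, a difference that was not called (log2 change 0.51 ± 0.16, SE; edgeR adjusted p = 0.196). Between the ethanol groups it was lower with CCl4, with a log2 change of -0.79 ± 0.14 (SE; edgeR adjusted p = 0.00217). The call for ethanol in OO livers was lost without library 14 (edgeR adjusted p = 0.0969) or 15 (0.0953). The gene, at chr11:120491840-120499187 of mm10, overlaps Gm11788.

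Slc25a1 exports citrate, the source of cytosolic acetyl-CoA for fatty acid and sterol synthesis. It was the only member called between CCl4 with ethanol and OO with chow, at 69.9, 74.6 and 85 CPM against 135 CPM (log2 change -0.82 ± 0.20, SE; edgeR adjusted p = 0.04996). That value sits at the threshold: the call was lost without library 18 (edgeR adjusted p = 0.129), 19 (0.0700) or 20 (0.0683), while the log2 change stayed between -0.90 and -0.76 over all alternatives run. OO ethanol livers held 121, 110 and 120 CPM, all above the CCl4 ethanol libraries (log2 change -0.61 ± 0.15, SE; edgeR adjusted p = 0.0109, or 0.0511 without library 18). Of 6 genes that make, cleave or use citrate 2 were lower and 0 higher in this comparison, where 11% of all genes were called lower. The 2 included malic enzyme Me1, which supplies NADPH (log2 change -1.18). Slc25a11, the oxoglutarate carrier of the malate-aspartate shuttle, ranged from 46.9 to 77.4 CPM and was not called by edgeR in any comparison, except for CCl4 under ethanol when library 13 was left out.

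Slc25a20 carries acylcarnitines into the matrix, the step between the outer and inner carnitine palmitoyltransferases of fatty acid oxidation. It had the smallest adjusted p of the family for ethanol in OO livers. The chow library of day 20 held 65.7 CPM and the ethanol libraries 114, 112 and 120 CPM (log2 change 0.81 ± 0.16, SE; edgeR adjusted p = 0.0205). The day 23 pair stood at 73.6 CPM with chow and 118 CPM with ethanol. In CCl4 livers the levels were 65.2 and 68.1 CPM with chow and 89.8, 86.5 and 89.4 CPM with ethanol, without overlap but outside the threshold (log2 change 0.41 ± 0.12, SE; edgeR adjusted p = 0.167). CCl4 ethanol livers were below OO ethanol livers (log2 change -0.38 ± 0.11, SE; edgeR adjusted p = 0.0245). This call was lost without library 15, 18, 19 or 20, with edgeR adjusted p from 0.0562 to 0.0820, and the ethanol call without library 15 (0.0533).

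Among enzymes of the carnitine shuttle and of long-chain fatty acid oxidation in OO livers, 3 of 9 were higher with ethanol and 0 lower: carnitine acetyltransferase Crat (28.1 CPM with chow and 63.7 ± 3.8 CPM with ethanol, SD, n = 3) and the acyl-CoA dehydrogenases Acadl and Acadvl, with log2 changes of 1.18, 0.68 and 0.70. All 9 changes were positive, with a median of 0.68 against 0.01 for all genes. Of all genes 1.22% were called higher in that comparison. With CCl4 added to ethanol 3 of 9 were lower, Cpt2 (log2 change -0.73), Acadm (-0.53) and Acadvl (-0.45), and all 9 changes were negative. Of all genes 11% were called lower there. In CCl4 chow livers 4 of 9 were lower at day 20 than at day 0, against 4.2% of all genes. Slc25a20 did not pass the test there (log2 change -0.36 ± 0.13, SE; edgeR adjusted p = 0.102).

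Slc25a15, the ornithine carrier of the urea cycle, was highest in CCl4 livers at day 0 and lower in CCl4 chow livers at day 20. It read 546 and 565 CPM at day 0 and 298 and 327 CPM at day 20 (log2 change -0.83 ± 0.23, SE; edgeR adjusted p = 0.0389). Of 6 urea cycle enzymes 3 were lower and 0 higher at day 20 in the same comparison, against 4.2% of all genes lower and 7.27% higher. Carbamoyl phosphate synthetase Cps1 stood at 10948 ± 64.6 CPM at day 0 and 5641 ± 278 at day 20, ornithine transcarbamylase Otc at 675 ± 9.56 and 413 ± 61.3, and argininosuccinate lyase Asl at 648 ± 17 and 257 ± 9.26 (SD, n = 2 each). CCl4 at day 0 itself did not give a call for Slc25a15 against the OO libraries at 457 and 435 CPM (log2 change 0.32 ± 0.23, SE; edgeR adjusted p = 0.535). The OO chow library of day 20 stood at 354 CPM, and OO livers were not compared over time. Between the CCl4 groups of day 0 and day 20 the day, CCl4 dose and substudy label differ together and cannot be told apart. All 8 neutrophil markers (7.41 to 15.5 CPM summed at day 0, with Ly6g at 0, and 227 to 241 CPM at day 20) and all 10 macrophage markers (314 to 331 and 833 to 928 CPM) were higher at day 20, and their part in the calls of Slc25a15 and Slc25a16 was not tested. The calls of Slc25a15 and Slc25a16 over time were lost without any of the libraries 3, 4, 16 and 17, with edgeR adjusted p from 0.102 to 0.180 for Slc25a15 and from 0.0811 to 0.144 for Slc25a16.

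Slc25a13, the aspartate-glutamate carrier of liver that supplies aspartate to the urea cycle and the malate-aspartate shuttle, was not called by edgeR in the fit over all groups. DESeq2 and the fit on only the compared groups called it lower at day 20 than at day 0 in CCl4 chow livers, and without library 13 it was called for ethanol in OO livers and for CCl4 under ethanol. It stood at 172 CPM in the OO chow library, 203, 291 and 334 CPM in OO ethanol livers and 197, 235 and 212 CPM in CCl4 ethanol livers. Its partner enzyme Got1, the cytosolic aspartate aminotransferase, was called 4 times: higher after CCl4 at day 0 (log2 change 1.25), and lower with ethanol in OO livers (-0.999), with CCl4 and ethanol against OO chow (-0.99) and at day 20 against day 0 (-1.52). Slc25a22, a glutamate carrier, was not called by edgeR or under any alternative and spread within groups, at 68.6, 23.7 and 36.1 CPM in OO ethanol livers and 63.8 and 28.3 CPM in CCl4 chow livers. Slc25a23 and Slc25a22 were both high in libraries 13 and 16 and low in libraries 14 and 17.

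Slc25a39 imports glutathione, the thiol that mitochondria need to handle peroxides and to build iron-sulphur clusters. It rose with ethanol in OO livers, from 233 CPM to 372, 356 and 392 CPM (log2 change 0.68 ± 0.16, SE; edgeR adjusted p = 0.0428). In CCl4 ethanol livers it was 293, 273 and 276 CPM, below all OO ethanol libraries (log2 change -0.41 ± 0.11, SE; edgeR adjusted p = 0.0197). The first call was lost without library 14 (edgeR adjusted p = 0.0646) or 15 (0.106), and the second without 15 (0.0721) or 20 (0.0595). Its relative Slc25a40 stayed between 3.57 and 7.49 CPM and was not called.

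Slc25a37, mitoferrin 1, brings iron into mitochondria for haem and iron-sulphur cluster synthesis. It was 34.5, 37.8 and 36 CPM in OO ethanol livers and 21.6, 14.6 and 24.6 CPM in CCl4 ethanol livers (log2 change -0.84 ± 0.20, SE; edgeR adjusted p = 0.00991). All 10 iron-sulphur and haem genes had a negative change in this comparison and 5 passed the test, where 11% of all genes were called lower. Among the 5 were ferredoxin Fdx1 (log2 change -1.06), ferrochelatase Fech (-0.60), the scaffold Iscu (-0.46) and Alas1 (-0.99), the first enzyme of haem synthesis in liver. The inner membrane transporter Abcb10, which also serves haem synthesis, was lower as well (log2 change -0.91). Erythroid markers stood at 58.8 to 82.6 CPM summed over 8 markers in OO and 36.2 to 51 CPM in CCl4 ethanol livers, with 1 of 4 tested markers, Alas2, lower and Hba-a1, Hbb-bs and Hbb-bt at 0 in both groups. Their part in the result was not tested. The gene overlaps 4 other annotated genes, and whether reads were counted by strand is not stated, so reads may be shared with them. Slc25a28, mitoferrin 2, was not called (log2 change -0.32 ± 0.14, SE; edgeR adjusted p = 0.126).

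**Figure D5:**
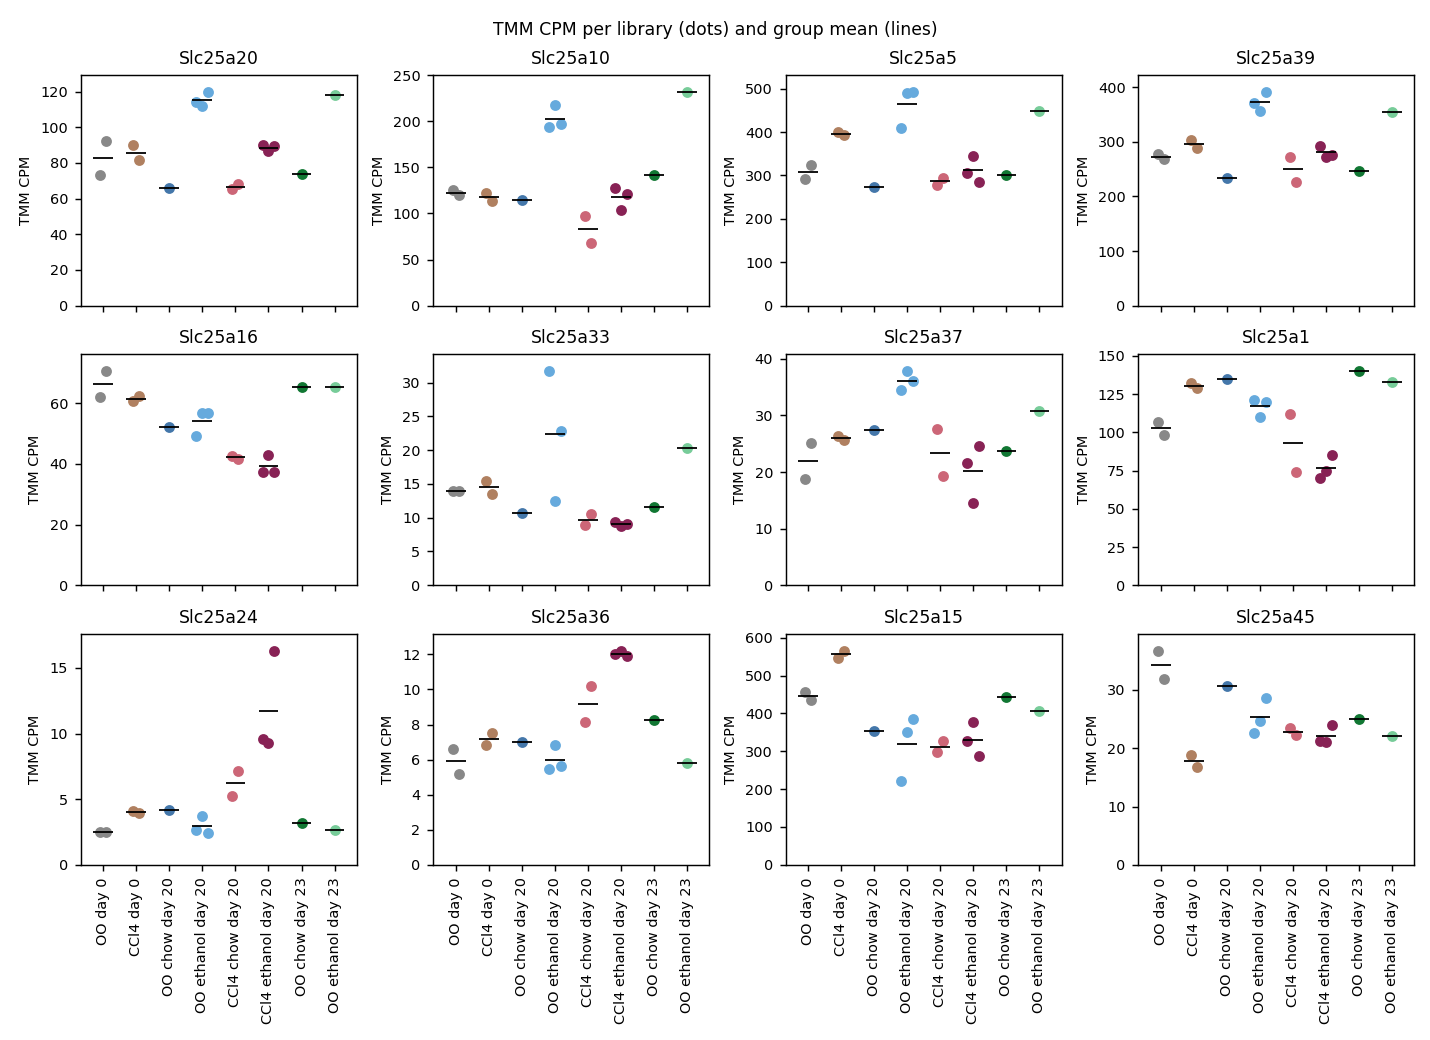
CPM of 12 members in every library (dots), by group, with the group mean as a line, on axes that start at 0. Slc25a20, Slc25a10, Slc25a5 and Slc25a39 are highest in the ethanol libraries of OO livers at both days, and Slc25a24 and Slc25a36 in CCl4 ethanol livers.

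Slc25a45, a carrier whose substrate is less settled, was 1 of the 2 members lower after CCl4 at day 0. It read 36.7 and 31.9 CPM in OO and 18.8 and 16.8 CPM in CCl4 livers (log2 change -0.94 ± 0.15, SE; edgeR adjusted p = 0.00974). Leaving out library 1, 3 or 4 ended the call (edgeR adjusted p = 0.0889, 0.0801 and 0.143). At day 20 no group was below day 0 CCl4 livers, with 30.7 CPM under OO chow and 21 to 28.6 CPM in the other groups. At day 0 macrophage markers summed to 485 to 540 CPM in OO and 314 to 331 CPM in CCl4 livers, with 1 of 10 higher and 2 lower, and stellate cell markers to 324 to 415 and 634 to 724 CPM, with 1 of 8 higher. No marker of these lists was at 0 in either group, and their part in the call of Slc25a45 was not tested.

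Slc25a47 was not called by edgeR in any comparison. Its level was 247 and 447 CPM in OO livers at day 0, and the day 20 libraries held 253 to 519 CPM. The day 23 libraries stood apart at 729 CPM with chow and 1060 CPM with ethanol. Day, substudy and labelled second phase differ together there and cannot be told apart. The uncoupling protein-like carriers Slc25a14, Slc25a27 and Slc25a30 were not called by edgeR in the fit over all groups; the fit on the day 0 groups alone called Slc25a30. Among family members under other symbols, Ucp2 was higher at day 20 than at day 0 in CCl4 chow livers, at 23.8 ± 5.22 against 6.82 ± 0.274 CPM (SD, n = 2 each; log2 change 1.80 ± 0.47, SE; edgeR adjusted p = 0.0319), while Ucp1 and Ucp3 stayed near 0. OO livers, not tested over time, read 10.3 ± 2.52 CPM of Ucp2 at day 0 (SD, n = 2), and library 12 read 24.5 CPM at day 20. All 10 macrophage and all 8 neutrophil markers were higher in the same comparison, with the sums given beside Slc25a15, and their part in the Ucp2 call was not tested.

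The single pair of day 23 libraries gave a further view of ethanol in OO livers, with no replicate and no test. The log2 ratio of ethanol to chow was 0.68 for Slc25a20, 0.71 for Slc25a10, 0.58 for Slc25a5 and 0.53 for Slc25a39. All 4 members called for ethanol at day 20 were thus higher in the ethanol library of this pair as well. Over the 42 tested members 29 ratios were positive, with a median of 0.20 against -0.02 for all genes. The largest ratio was that of Slc25a34, a carrier with a less settled substrate named after its values were seen, at 4.29 CPM with chow and 14.3 CPM with ethanol. This ethanol library also held 98.3 CPM of skeletal muscle and 177 CPM of exocrine pancreas transcripts, whose part was not tested.

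The choice of control mattered for these 4 calls. Against the day 23 chow library alone none of the 4 was called, at log2 changes of 0.51 (Slc25a10), 0.65 (Slc25a20), 0.60 (Slc25a39) and 0.63 (Slc25a5) and edgeR adjusted p of 0.313, 0.109, 0.143 and 0.172. With the mean of both chow libraries, and also with the mean of both ethanol days against both chow days, an alternative chosen after the data were seen, all 4 were called. These fits reuse the day 20 libraries that gave the first calls and are not independent of them. The share of all genes called in them is not given here, so they show nothing particular to the 4. Without library 15 none was called, and without library 14 Slc25a20 and Slc25a33 were. Library 12, the day 20 control, also held more macrophage transcripts than the ethanol libraries (1191 against 505 to 645 CPM over 10 markers, 6 of them lower with ethanol) and more exocrine pancreas transcripts (176 against 7.82 to 13.5 CPM over 15 markers, 10 of 13 tested lower, with Prss1 and Prss3 at 0 in both groups). Their part in the 4 calls was not tested, and the day 23 chow library held 8.64 CPM of pancreas transcripts.

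The machinery that inserts carriers into the inner membrane was compared as well. With CCl4 added to ethanol 2 of 11 tested import genes were lower, the small chaperone Timm9 (log2 change -0.52) and the receptor Tomm70a (-0.48), and none higher. Of all genes 11% were called lower and 12.7% higher there, 23.7% either way, so this count shows nothing particular to the import genes. At day 20 against day 0 in CCl4 chow livers 1 of 11, Timm9 (-0.73), was lower. There 8 of 15 ATP synthase subunits were lower, with a median log2 change of -0.57, against 4.2% of all genes called lower. In that comparison Slc25a5 (log2 change -0.47 ± 0.15, SE; edgeR adjusted p = 0.0667) and Slc25a3 (-0.46 ± 0.14; 0.0612) lay just outside the threshold, and DESeq2 called both.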

How the data were processed

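Counts per gene symbol were deposited as 1 table per library. The authors aligned mRNA-seq reads of whole liver (TruSeq mRNA kit, per the labels' protocols) with GSNAP to mm10, per the submitters' processing notes, which also name DESeq2 1.12.3. How reads were counted, with which annotation and whether by strand is not given in the sources used here. The 5 summary entries of each table that name no gene were dropped. Genes took 41.4% to 53% of the reads listed, and reads aligned to several places, 18.1% to 28.8%, counted for none. Table names give another day than the labels, which were followed.

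Raw counts were TMM-scaled, reduced by filterByExpr to 14778 genes, and modelled in edgeR 4.0.16 under R 4.3.3, with 1 mean for each of 8 groups and 7 residual degrees of freedom. Groups with 1 library were assumed to vary like the others. P-values were adjusted by Benjamini-Hochberg over all genes and called under 0.05. The family's members, the gene lists and the alternatives were chosen with earlier results of these data known. Named members are those called in any comparison and 15 chosen by role; partner lists are given by counts and up to 4 called genes, and other names were chosen after their values were seen. Exon lengths and mm10 positions came from GENCODE M21, which matched all 47 members. Log2 ratios of single libraries used a prior count of 2. The test was tested on simulated counts. The values of 1 member and 1 partner gene are not reported here, and the counts include them. Replicate libraries differed beyond counting noise in all groups with more than 1 library. Chi-square per degree of freedom was 3.93 between libraries 3 and 4 (CCl4 at day 0) and 19.4 to 78.4 between the other replicate pairs. Libraries 3 and 4 thus spread far less than the rest, and whether they are separate animals is not stated. Alternatives were RLE scaling, no filter, DESeq2 1.42.0, fits on the compared groups, limma-voom (3.58.1) with the lane in the table names (6 lanes of 2 to 4 libraries) as a random block, whose consensus correlation was -0.0818, other OO chow controls and each library left out; the fit without libraries 14 and 20 and the one over both ethanol days were added after the data were seen.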

Additional observations from a re-analysis of the deposited data

How the results depend on the processing

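No paired analysis was possible because the library numbers are not shared between groups. Of 21 calls of a member in a comparison, 6 held under every alternative run, all for CCl4 under ethanol, among them Slc25a10, Slc25a24, Slc25a33, Slc25a36 and Slc25a37. Over 368 values of named members, 57 left the threshold, 20 entered it and 0 changed sign. Each count of members is followed by the share of all genes called in the same fit. In the fit on only the compared groups, members called numbered 8 (17.2%) at day 0 against 2 (2.06%) over all groups, 0 (0.117%) for ethanol in OO livers against 4 (3.64%), 0 (0.953%) for CCl4 with ethanol against OO chow where all groups gave 1 (2.8%), and 7 (17.3%) for day 20 against day 0 where they gave 2 (11.5%). All-gene calls in these fits moved from 304 to 2240, 538 to 16, 414 to 137 and 1694 to 2355, and for CCl4 under ethanol from 3509 to 2319. DESeq2 called 729 genes at day 0, 962 for ethanol in OO livers, 416 (edgeR 187) for ethanol in CCl4 livers, 115 (28) for CCl4 under chow and 148 (2) for the interaction. For ethanol in OO livers no filter gave 2 (2.88%) and the day 23 chow control 0 (0.636%). That control gave 1 call (2.44%), Slc25a51, when CCl4 was compared under chow. Between CCl4 ethanol and OO chow livers RLE scaling gave 0 (2.63%), no filter 2 (2.63%), DESeq2 2 (6.03%), limma-voom with lane 0 (1.87%), the day 23 chow control 5 (6.73%) and the mean of both chow libraries 5 (10.8%). DESeq2 gave 6 (14%) for day 20 against day 0. Leaving out each library gave 0 to 2 members at day 0 (0.353% to 0.819%), 0 to 7 for ethanol in OO livers (1.71% to 10.5%), 9 to 16 for CCl4 under ethanol (15.1% to 27%), 0 to 1 for CCl4 with ethanol against OO chow (1.51% to 4.35%), 0 to 3 for day 20 against day 0 (1.78% to 5.4%), and 0 in the 3 other comparisons (0% to 0.956%). Without libraries 14 and 20, 9 members were called for CCl4 under ethanol, 7 of them shared with the 12 and 13.8% of all genes called. The causes were not tested. Low members such as Slc25a24 rest on 27 to 228 reads a library.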

Other observations

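When CCl4 was added to ethanol, the called genes that work beside the carriers were lower, except for Mthfd2 and Mthfd2l. Of all genes 11% were called lower and 12.7% higher in that comparison. Of 10 genes of one-carbon and cofactor metabolism 2 were higher and 3 lower by edgeR. The folate enzymes Mthfd2 and Mthfd2l had log2 changes of 1.19 and 1.13. Both were at low levels, and Mthfd2 averaged 1.72 CPM in OO and 4.01 CPM in CCl4 ethanol livers. Mthfd2l averaged 0.83 and 1.85 CPM in these groups. Serine hydroxymethyltransferase Shmt2 (log2 change -0.78), pantothenate kinase Pank1 (-0.69) and coenzyme A synthase Coasy (-0.66) were lower. Among 12 inner membrane transporters outside the family 4 were lower and 0 higher, namely Abcb10 (-0.91), the serine transporter Sfxn1 (-0.53), Letm1 (-0.53) and Sfxn5 (-0.41). At day 20 against day 0 in CCl4 chow livers the glutaminase Gls2 (-1.63) and the pyruvate carrier subunit Mpc2 (-0.78) were lower, and Gls2 had been higher after CCl4 at day 0 (1.14).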
